A study of Bos taurus with 9 samples.

Results

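The H3K9me3 peaks called in rumen epithelial tissue of Holstein calves after weaning were compared with the H3K9ac, H3K27ac and RNA pol II peaks called in the same tissue at the same time. They were taken as whole lists, by target and time point in the labels. The H3K9me3 list held 4170 peaks, the H3K9ac list 2127, the H3K27ac list 30446 and the RNA pol II list 738, out of 130580 peaks in the 8 lists of the series. The other 4 lists came from the same targets before weaning, and 1 further library was the input, chromatin sequenced without immunoprecipitation. Each group was 1 library, all from Holstein calves. The labels name neither the age nor the number of the calves, nor whether tissue was pooled. There were thus no replicates, and the tests below set 1 list against random placement of its peaks, not 1 condition against another. After weaning, H3K9me3 and H3K9ac were sequenced on lane 1, and H3K27ac and RNA pol II on lane 2. Before weaning, H3K9ac was on lane 1, and H3K27ac, RNA pol II and H3K9me3 on lane 2. The input was on lane 5. Between the H3K9me3 lists of the 2 time points, lane and time point thus cannot be told apart. The study's text names the other time point for the shortest RNA pol II list; the labels were followed here.

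H3K9me3 is trimethylation of histone H3 at lysine 9. It is laid down by enzymes of the SUV39H and SETDB1 families, read by HP1 proteins, and known for compacted, silent chromatin over repeats and some gene families. Acetylation of the same lysine, H3K9ac, marks active promoters, and acetylation of lysine 27, H3K27ac, marks active promoters and enhancers. RNA pol II is the polymerase that transcribes protein-coding genes. Lysine 9 of 1 histone tail cannot carry an acetyl group and 3 methyl groups together, but a peak averages over many cells, both alleles and neighbouring nucleosomes. The comparison asked whether the repressive and the active peaks lay apart after weaning, base by base, by distance and by megabase.

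H3K9me3 peaks were narrow, with a median width of 247 bp. RNA pol II peaks had a median of 310 bp, H3K27ac peaks of 290 bp and H3K9ac peaks of 244 bp. They covered 1428 kb, and the widest measured 8908 bp. Of the 4170 peaks, 435 (10.4%) lay in a window of 2 Mb on chromosome 17, from 50 to 52 Mb, which also held 192 of the 738 RNA pol II peaks (26.0%), 82 H3K9ac peaks and 64 H3K27ac peaks. The main values are therefore given with and without this window. Positions are on UMD3.1.1, and the genes at these positions and their sequences were not analysed here, nor could the tissue be checked against marker genes.

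The lists touched far more often than randomly placed peaks did. A total of 627 H3K9me3 peaks shared at least 1 bp with an active peak, 15.0% of the list (95% Wilson interval 14.0 to 16.2), whereas random placement on the same chromosomes gave 0.856% on average and at most 1.32%. Contact was most frequent with RNA pol II, at 584 peaks or 14.0%, against 0.0526% by placement. H3K9ac was touched by 282 H3K9me3 peaks or 6.76%, against 0.0634%. H3K27ac was touched by 234 or 5.61%, against 0.806%. The excess over placement was thus 266-fold for RNA pol II and 107-fold for H3K9ac, but 6.96-fold for H3K27ac, the list with the most peaks. These sizes depended on the placement. Against shifts of up to 500 kb, which leave peaks near their own place, they fell to 10.9-fold for RNA pol II, 11.9-fold for H3K9ac and 5.27-fold for H3K27ac, so RNA pol II no longer led H3K9ac.

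Without the chromosome 17 window the contact remained, at 459 of 3735 peaks (12.3%, interval 11.3 to 13.4). The shares were 11.3% for RNA pol II, 5.68% for H3K9ac and 4.69% for H3K27ac, or 587-fold, 119-fold and 5.99-fold over placement. Against such shifts the excess outside the window was 42.6-fold, 39.0-fold and 5.71-fold. A reciprocal overlap of 50% lowered the shares there to 8.01%, 3.27% and 2.36%. Inside the window 168 of the 435 H3K9me3 peaks touched an active peak.

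Seen from the active side, the lists differed widely. Of the 738 RNA pol II peaks, 637 (86.3%, interval 83.6 to 88.6) lay on an H3K9me3 peak, and outside the window 456 of 546 (83.5%) did so. Of the H3K9ac peaks, 301 (14.2%) lay on H3K9me3, and 222 of 2045 (10.9%) outside the window. Of the H3K27ac peaks, 250 (0.821%) did so, and 186 of 30382 (0.612%) outside the window. Placement gave 0.300%, 0.118% and 0.113% over all peaks. A reciprocal overlap of 50% lowered the observed shares over all peaks to 52.4% for RNA pol II, 7.19% for H3K9ac and 0.374% for H3K27ac. With the list labelled RNA pol II before weaning in place of the one labelled after, a setting added after the data were seen, 20.4% of its peaks lay on H3K9me3 after weaning and 9.42% of the H3K9me3 peaks touched it. The shares between H3K9me3 and each of the 3 active lists labelled after weaning, in both directions and with and without the window, made 36 permutation tests together with the distances and 1 Mb values below. The share touching any active list and the added setting were not among them. In 35 of them the two-sided p was 0.0020, the smallest that 1000 placements can give, and 0.00206 after Benjamini-Hochberg adjustment.

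**Figure D1:**
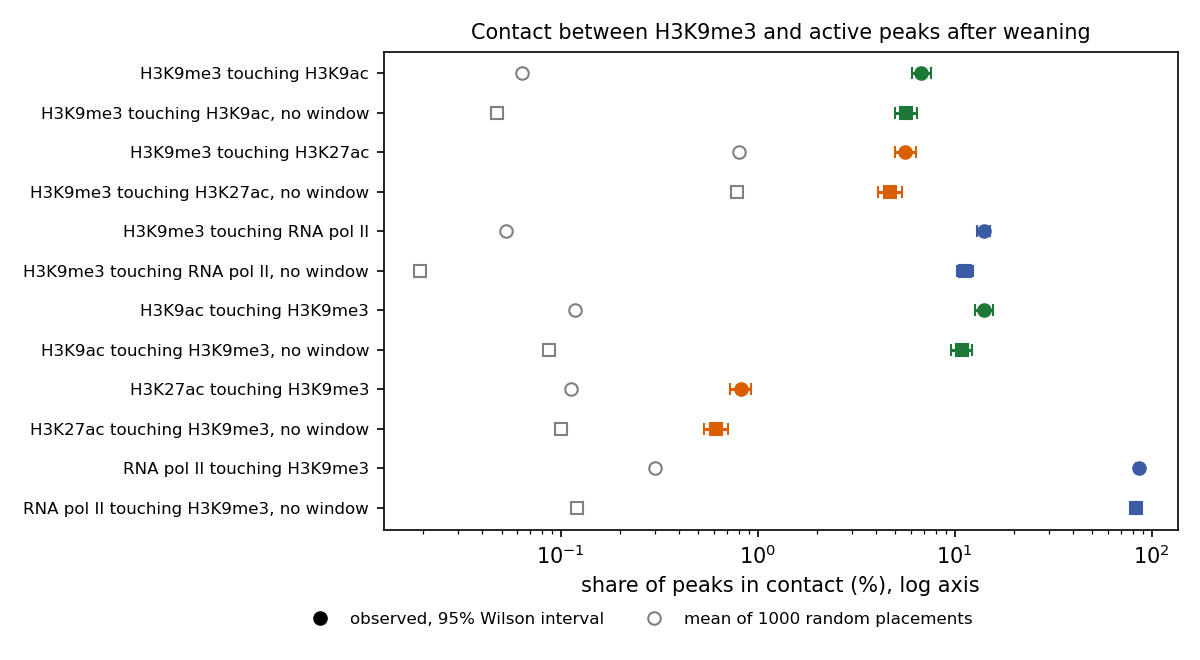
Share of peaks in contact with the other kind of list after weaning, in percent on a log axis, for H3K9me3 peaks (upper rows) and active peaks (lower rows). Filled markers are observed shares with 95% Wilson intervals, open markers the mean of 1000 random placements, circles all peaks and squares peaks outside the chromosome 17 window. Every filled marker lies to the right of its open marker, from 0.612% for H3K27ac without the window to 86.3% for RNA pol II.

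Where an H3K9me3 peak touched an active mark, RNA pol II was nearly always among the marks. It was present on 93.1% of the 627 peaks in contact. It was the single active mark on 278 of them, it came with H3K9ac on 96, with H3K27ac on 50 and with both on 160. H3K9ac without the others was found on 19, H3K27ac without the others on 17, and the 2 acetylation marks without RNA pol II on 7. Without the window these counts were 200, 66, 33, 123, 18, 14 and 5, in the same order. Peaks with all 3 active marks were wide, with a median of 730.5 bp, against 369.5 bp for those with RNA pol II alone and 233 bp for the 3543 peaks with none.

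The contacts were mostly active peaks lying inside an H3K9me3 peak. This held for 79.6% of the 304 touching pairs with H3K9ac, 78.3% of the 254 pairs with H3K27ac and 60.1% of the 657 pairs with RNA pol II. The median shared length was 280 bp, 275.5 bp and 295 bp, respectively. The shared bases were 83.1% of all bases under RNA pol II peaks, 17.3% of those under H3K9ac and 0.766% of those under H3K27ac. On the H3K9me3 side they were 15.9%, 7.07% and 5.75%. The shares of active bases without the window were 81.1%, 13.3% and 0.576%. Touching RNA pol II peaks began at the same base as the H3K9me3 peak in 55 pairs and ended at the same base in 47.

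Individual regions show what such contact looked like. The H3K9me3 peak at chr9:91184920-91186280, 1361 bp wide, shared the most bases with both H3K9ac and RNA pol II. The RNA pol II peak there ran from the same start to base 91186288 and covered it whole, and an H3K9ac peak of 1188 bp lay inside it. For H3K27ac, the largest shared length was 1082 bp, on an H3K9me3 peak of 1475 bp at chr17:50641249-50642723, inside the window. Outside the window it was 953 bp, at chr23:11034960-11036257.

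The widest H3K9me3 peak touching all 3 active lists was chr17:25029834-25032803, 2970 bp wide, with 1 H3K9ac, 1 H3K27ac and 2 RNA pol II peaks on it. The next was chr17:25123192-25126068, 2877 bp wide, with 3, 2 and 4 peaks. The third, chr9:91187043-91189783, was 2741 bp wide and carried 1, 3 and 3 peaks. The others were chr17:49099473-49101805 at 2333 bp and chr11:61788952-61791152 at 2201 bp. All 5 also touched an H3K9me3 peak before weaning. The widest H3K9me3 peak of the list, chr17:25036556-25045463 at 8908 bp, touched 8 RNA pol II peaks, while the nearest H3K27ac and H3K9ac peaks lay 4.55 kb and 4.68 kb away.

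Active peaks on H3K9me3 differed in company from active peaks elsewhere. Of the 301 H3K9ac peaks on H3K9me3, 90.4% also touched RNA pol II, against 0.657% of the 1826 others. Of the 250 H3K27ac peaks on H3K9me3, 90.0% touched RNA pol II, against 0.0629% of the 30196 others. Off H3K9me3 just 101 RNA pol II peaks were left for the others. Their shares were thus held low in advance, and these 2 contrasts are no result about the active peaks. The H3K27ac peaks on H3K9me3 also touched H3K9ac in 70.0% of cases. The others did so in 4.30%, a share limited by the 1826 H3K9ac peaks left for them. The reverse share went the other way, as 57.8% of the H3K9ac peaks on H3K9me3 (interval 52.2 to 63.3) touched H3K27ac, against 71.2% of those off it (interval 69.1 to 73.2). The history of the H3K27ac peaks differed as well, since 15.2% of those on H3K9me3 lay on an H3K27ac peak before weaning, against 77.4% of the H3K27ac peaks off H3K9me3. The intervals of these 2 shares were 11.3 to 20.2 and 76.9 to 77.9, and they take in counting error alone, as peaks are not replicates. Without the window 88.3% of the H3K9ac peaks on H3K9me3 touched RNA pol II, against 0.494% of the others, and 88.7% of the H3K27ac peaks did so, against 0.0629%. Just 90 RNA pol II peaks lay off H3K9me3 outside the window, so the same limit holds. There 15.6% of the H3K27ac peaks on H3K9me3 lay on an H3K27ac peak before weaning, against 77.4% of the others. The H3K9ac peaks there touched H3K27ac in 59.5% of cases on H3K9me3 and 71.3% off it. The shares of all H3K9ac peaks on the same mark before weaning were 34.2% on H3K9me3 and 45.9% off it, and for RNA pol II 55.4% on H3K9me3 and 34.7% off it.

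Contact was more frequent among wide H3K9me3 peaks. Outside the window the list was cut by width into 5 classes of 747 peaks. In the narrowest, all 200 bp wide, 1.87% touched an active peak, against 0.712% by placement on average. The highest placement also reached 1.87%, so this class was not above the range. In the widest, from 358 to 8908 bp, 37.8% did so, against 1.15%. The classes between them gave 2.14%, 7.90% and 11.8%. Under placement the share was also highest in the widest class, and the part of width in contact was not tested.

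Contact was held mainly by the H3K9me3 peaks that were also called before weaning. Outside the window, 918 peaks after weaning touched an H3K9me3 peak of the earlier list, and 415 of them (45.2%, interval 42.0 to 48.4) touched an active peak after weaning. The other 2817 were called after weaning alone, and 44 of them (1.56%, interval 1.17 to 2.09) did so. The peaks called at both times were wider, with a median of 357 bp against 222 bp, and the part of width in this difference was not tested. In the widest class 273 of 457 peaks called at both times were in contact (59.7%), against 9 of 290 called after weaning alone (interval 1.64 to 5.79%). In the narrowest class the counts were 4 of 31 and 10 of 716.

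Set against placement, the peaks called after weaning alone showed no excess of contact with H3K27ac. They touched it in 18 cases, 0.639%, and placement gave 0.746% on average, with a range of 0.355 to 1.24. With H3K9ac they were in contact in 12 cases, 0.426%, above the placement range, which ended at 0.213%. With RNA pol II it was 26 cases, 0.923%, above a range that ended at 0.106%. The peaks called at both times touched RNA pol II in 43.1% of cases, H3K9ac in 21.8% and H3K27ac in 17.1%. Being called in both H3K9me3 libraries and being in contact with active marks thus went together. After the 29 regions with a peak in each of the 8 lists were left out, 4.96% of all H3K9me3 peaks touched H3K27ac, 6.09% H3K9ac and 13.3% RNA pol II.

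H3K9me3 peaks were also nearer to active peaks than placement put them. Distances run from edge to edge and are 0 where peaks touch. The median distance from an H3K9me3 peak to the nearest H3K27ac peak was 55.8 kb, against 116 kb by placement. To the nearest H3K9ac peak it was 264 kb against 777 kb. To the nearest RNA pol II peak it was 1121 kb against 4278 kb, over the 4057 H3K9me3 peaks on chromosomes with RNA pol II peaks. Without the window the medians rose to 74.4 kb, 351 kb and 1792 kb, still below placement at 117 kb, 778 kb and 4435 kb. With the list labelled RNA pol II before weaning in place of the one labelled after, the median to RNA pol II was 330.3 kb against 876 kb, and 433 kb against 897 kb without the window. This median also moved with the peaks taken. It was 2223 kb, against 4541 kb, after peaks within 1 kb were merged, and 161.6 kb, against 6003 kb, among peaks wider than the median of their list. Without the window the wider peaks gave 1018 kb, against 6470 kb. Over the whole list, the H3K9me3 peaks that did not touch RNA pol II lay at a median of 2104 kb from it, against 4282 kb.

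In the reverse direction the median distance from an RNA pol II peak to H3K9me3 was 0, against 542 kb by placement. From H3K9ac it was 349.7 kb against 524 kb, and from H3K27ac 456 kb against 520.0 kb. Without the window the medians were 0 from RNA pol II, 379.8 kb from H3K9ac and 457 kb from H3K27ac, against 520.0, 521 and 520.5 kb. Among peaks wider than the median of their list, window included, the median from H3K9ac was 726 kb, against 1408 kb. From H3K27ac it was 1201 kb in that setting, against 1371 kb. From the RNA pol II list labelled before weaning the median was not 0 but 307 kb, against 530.0 kb, and 348 kb without the window, against 525.5 kb. The 101 RNA pol II peaks that did not touch H3K9me3 lay at a median of 5.08 kb from it, and the 90 such peaks outside the window at 20.8 kb, while untouched H3K9ac and H3K27ac peaks lay at medians of 446 kb and 461 kb. When peaks were instead shifted by up to 500 kb, the medians from H3K9ac, from H3K27ac and from H3K9me3 to RNA pol II did not pass the test.

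**Figure D2:**
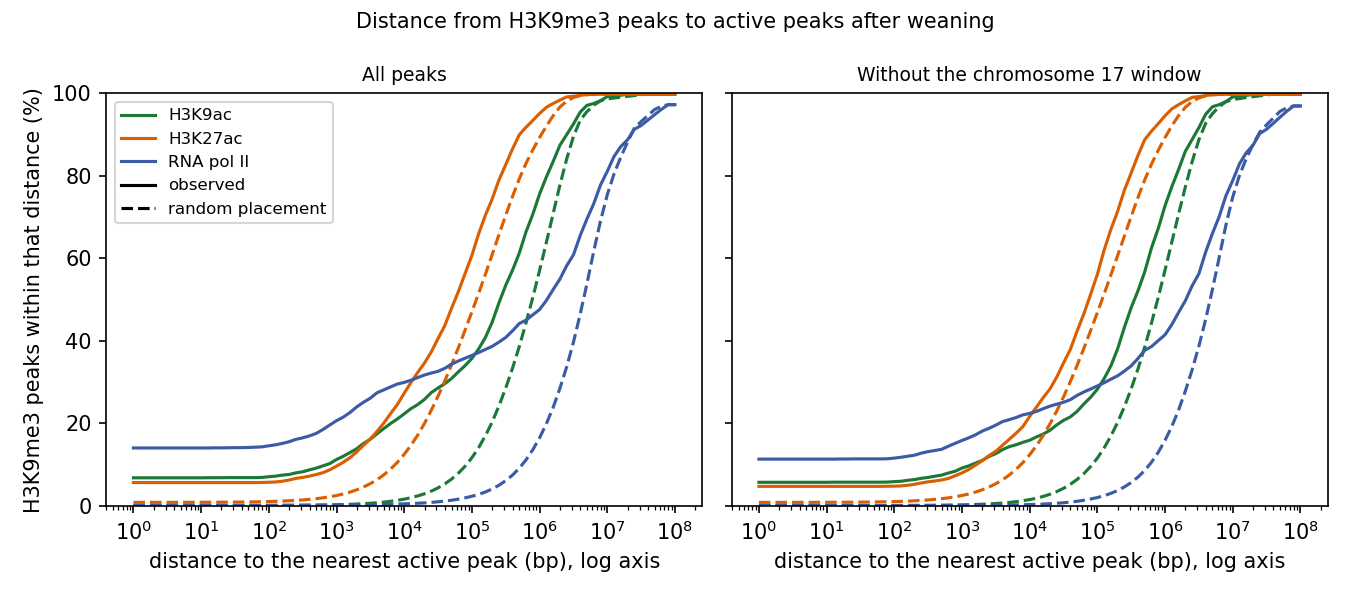
Share of H3K9me3 peaks after weaning, in percent, that had an active peak within a given distance in bp (log axis), for all peaks (left) and without the chromosome 17 window (right). Solid lines are observed and dashed lines the mean of 1000 random placements. Solid lines start above the dashed ones, at 14.0% for RNA pol II, 6.76% for H3K9ac and 5.61% for H3K27ac in the left panel.

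Many H3K9me3 peaks had nothing active near them, although fewer than by placement. No active peak lay within 100 kb of 1372 H3K9me3 peaks, 32.9% of the list, where placement gave 52.3% and never less than 49.7%. The observed share was 36.7% without the window, against 52.4% by placement. These peaks were narrow, with a median of 225.5 bp, and 9.62% of them were also called before weaning, against 92.5% of the peaks in contact. In the whole list, 1252 of 4170 peaks were called before weaning too. The 5 widest peaks with no active peak within 100 kb formed 1 stretch, chr8:83233305-83258752. It was 25.4 kb long, and its 6 H3K9me3 peaks covered 93.8% of it. The 5 peaks measured 6113, 5097, 4450, 3766 and 3642 bp. The nearest H3K27ac peak lay between 133 and 154 kb away, the nearest H3K9ac peak between 218 and 238 kb, and the nearest RNA pol II peak between 2924 and 2944 kb. All 5 were also called before weaning.

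Counting all active peaks at a given gap, not just the nearest, showed how far the excess reached. Outside the window, pairs of H3K9me3 and RNA pol II peaks between 1 and 10 kb apart were 135 times as frequent as by placement. The ratio fell to 32.9 between 10 and 100 kb, to 4.20 between 100 kb and 1 Mb, and to 0.726 between 1 and 5 Mb. For H3K9ac the ratios were 20.8, 4.87, 1.30 and 0.987. For H3K27ac they were 1.61, 0.954, 1.03 and 1.03. The window changed these values. Over all peaks they were 83.6, 37.6, 14.6 and 0.793 for RNA pol II, and 26.0, 11.3, 4.90 and 1.01 for H3K9ac. For H3K27ac they were 2.05, 1.32, 1.17 and 1.08, each above the range of the placements.

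The 3276 H3K9me3 peaks outside the window that touched nothing active gave lower values for H3K27ac at short gaps. Their ratio of H3K27ac pairs was 0.907 within 1 kb and 1.09 between 1 and 10 kb, both within the range of the placements. Between 10 and 100 kb it was 0.876, just below that range, which began at 0.903. From 100 kb to 1 Mb it was 1.05. Towards H3K9ac and RNA pol II the same peaks kept an excess, with ratios of 11.7 and 84.0 between 1 and 10 kb. With the window taken in, the 3543 peaks touching nothing active had H3K27ac ratios of 1.17 within 1 kb, inside the range of the placements, and of 1.42, 1.14 and 1.15 at the next 3 gaps, above it.

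**Figure D3:**
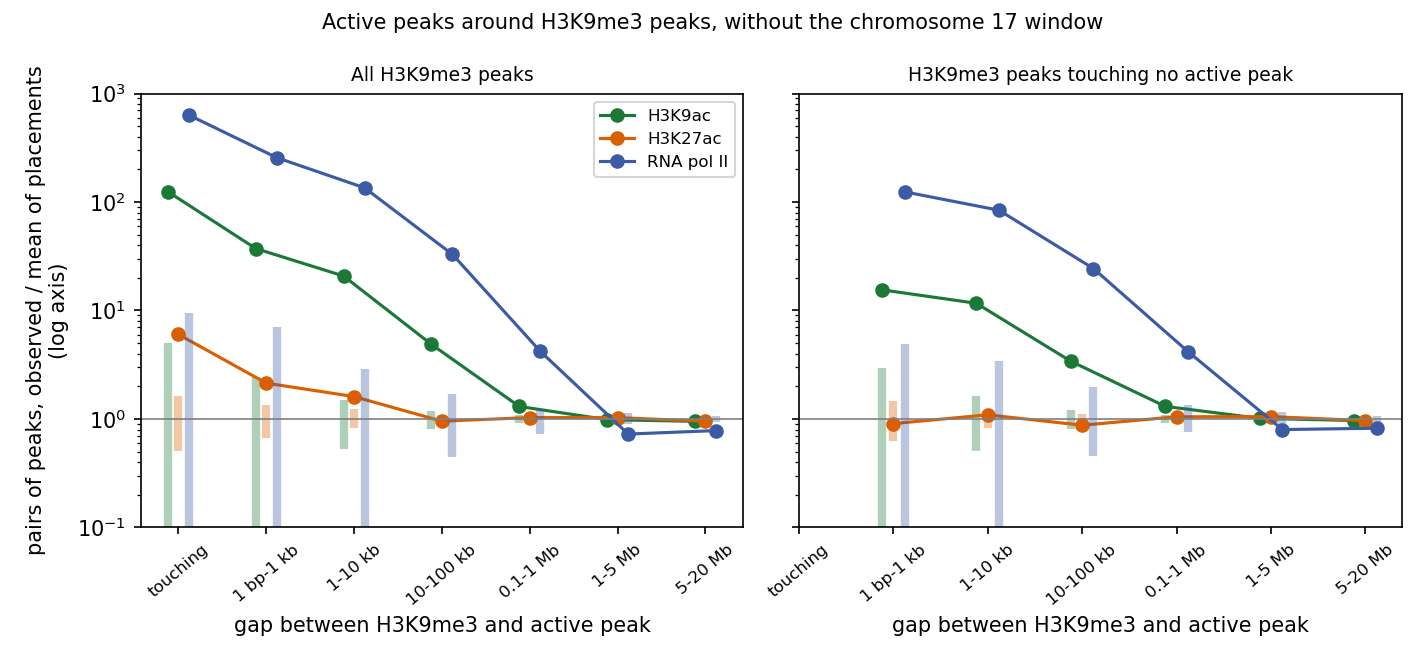
Number of pairs of an H3K9me3 peak and an active peak after weaning, divided by the mean of 1000 random placements (log axis), by the gap between them, without the chromosome 17 window. The left panel takes all H3K9me3 peaks, the right panel those touching nothing active, which have no touching pairs by their choice. Pale bars are the range of the placements, and bars reaching the foot of the axis go lower. RNA pol II falls from 135 at 1 to 10 kb to 4.20 at 100 kb to 1 Mb, while H3K27ac in the right panel stays between 0.876 and 1.09.

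At the scale of 1 Mb, H3K9me3 peaks lay in megabases richer in RNA pol II and H3K9ac peaks than by placement, whereas for H3K27ac this depended on the chromosome 17 window. The genome was cut into bins of 1 Mb from the first base of each chromosome. The bin of an H3K9me3 peak held 14.0 RNA pol II peaks on average against 0.681 by placement, 6.43 H3K9ac peaks against 0.981, and 14.5 H3K27ac peaks against 12.3. After peaks within 1 kb were merged, the means were 5.06 against 0.311, 3.001 against 0.834 and 9.35 against 8.37. The chromosome 17 window carried much of the excess. Without it the means were 3.60 against 0.269 for RNA pol II, 2.01 against 0.830 for H3K9ac, and 12.3 against 12.3 for H3K27ac. The ratio for RNA pol II was then 13.4, and with the list labelled before weaning in its place it was 3.05. Merging lowered the means there to 1.62 against 0.169 for RNA pol II and 1.33 against 0.773 for H3K9ac. These sizes depended on the placement. Against shifts of up to 500 kb, the ratios over all peaks were 1.07 for RNA pol II and 1.05 for H3K9ac. Without the window they were 1.24 and 1.14. The value for H3K27ac was the 1 permutation test of the 36 that missed the threshold, at p = 0.853 before and after Benjamini-Hochberg adjustment. Its direction depended on the setting, since the ratio to placement was 0.996 here, 0.971 with shifts of up to 500 kb and 1.06 in bins of 5 Mb. The value over all peaks depended on the setting too, as it fell below placement with such shifts, at a ratio of 0.983 (permutation p = 0.022), and did not pass the test when lists were rotated (permutation p = 0.208).

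Bins empty of an active mark held fewer H3K9me3 peaks than by placement, too. Of all H3K9me3 peaks 9.64% lay in a bin without H3K27ac, against 21.4% by placement, 37.8% in a bin without H3K9ac, against 62.0%, and 57.4% in a bin without RNA pol II, against 90.9%. Without the window the shares were 10.8%, 42.2% and 64.1%. Counted as bins, 1257 of 2675 held H3K9me3. Of these, 84.7% also held H3K27ac, as did 76.7% of all bins. H3K9ac was in 43.7% of them and in 35.8% of all bins, and RNA pol II in 13.0% and 7.07%. Against placement, the bins shared with the acetylation marks were fewer. H3K9me3 and H3K27ac shared 1065 bins, against 1465 by placement (lowest 1428). H3K9me3 and H3K9ac shared 549, against 697 (lowest 668). With RNA pol II it was 164, above placement at 146.5 (highest 162). The cause was not tested. The reverse share for RNA pol II was high, as 86.8% of the 189 bins with RNA pol II held H3K9me3.

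Counts per bin rose together weakly by rank. Across the 2673 bins outside the window Spearman's rho with H3K9me3 was 0.30 for RNA pol II, 0.18 for H3K9ac and 0.15 for H3K27ac. The highest values in 200 placements were 0.102, 0.107 and 0.113. Pearson's r depended on the window, at 0.90, 0.61 and 0.04 with it and 0.69, 0.25 and 0.02 without it. Bins are not replicates, the counts come from the same chromosomes, and these values are descriptions.

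The relation to H3K27ac was not a steady one. Outside the window, the 624 bins without H3K27ac held 0.633 H3K9me3 peaks per bin, 0.498 of placement. Bins with 1 to 5 H3K27ac peaks held 1.57, bins with 6 to 15 held 1.83 and bins with 16 to 30 held 1.63, at ratios of 1.15, 1.28 and 1.11. In the 280 bins with over 30 H3K27ac peaks the value fell to 1.29, a ratio of 0.821 below the placement range, which began at 0.860. The mean per bin was thus lowest at both ends of H3K27ac density. The share of bins with any H3K9me3 peak was low at 1 end, at 30.8% in bins without H3K27ac, against 48.9%, 54.3%, 53.3% and 51.8% in the other classes. No list had a peak in 235 of the bins, and their part in the value for bins without H3K27ac was not tested.

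**Figure D4:**
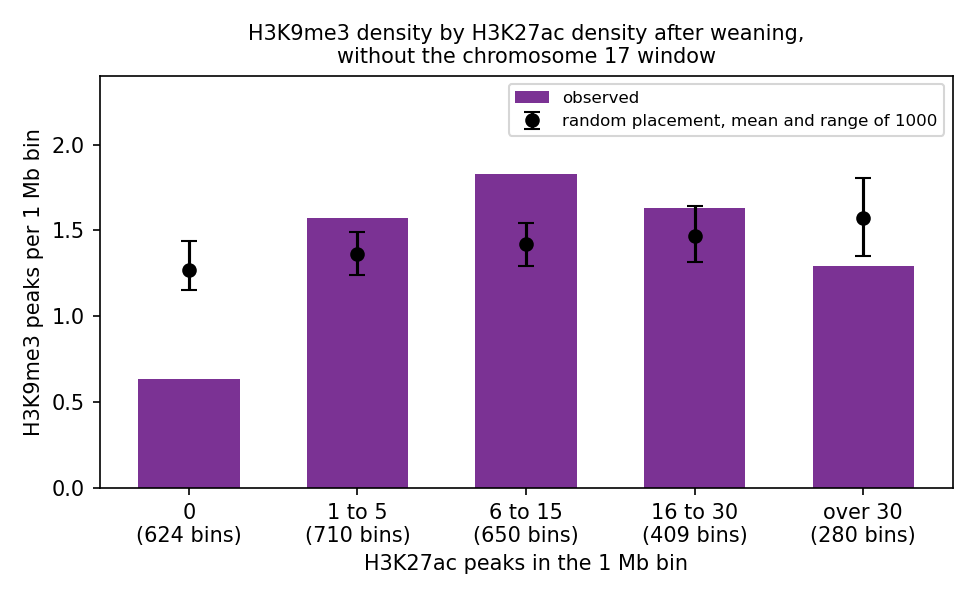
H3K9me3 peaks per 1 Mb bin after weaning (bars), by the number of H3K27ac peaks in the bin, without the chromosome 17 window. Points are the mean of 1000 random placements and their bars the lowest and highest. The bars rise from 0.633 in bins without H3K27ac to 1.83 in bins with 6 to 15 peaks, then fall to 1.29 in bins with over 30, and the first and last bars lie below the placements.

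The 5 bins with the most H3K27ac peaks held 94 to 112 of them and 0, 0, 1, 2 and 0 H3K9me3 peaks, with no contact and no RNA pol II peak. They were chr11:25000001-26000000, chr29:44000001-45000000, chr10:80000001-81000000, chr3:14000001-15000000 and chr7:63000001-64000000. The 5 bins with the most H3K9me3 outside the window held 2 to 10 H3K27ac peaks.

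Those 5 H3K9me3 bins were not alike in their contact. The first, chr14:1-1000000, held 122 H3K9me3 peaks and 22 RNA pol II peaks, and 18 of the H3K9me3 peaks touched an active peak. The second, chr27:28000001-29000000, held 71 with 1 RNA pol II peak and 1 contact. In chr17:25000001-26000000, 26 of 65 H3K9me3 peaks were in contact, beside 38 RNA pol II peaks. In chr9:7000001-8000000 it was 34 of 61, beside 37 RNA pol II peaks. In chr6:6000001-7000000 it was 12 of 53, beside 15. The first and the second megabase of the chromosome 17 window held 143 and 292 H3K9me3 peaks, with 66 and 102 in contact and 76 and 116 RNA pol II peaks.

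Outside the window, 65 bins held 10 or more H3K9me3 peaks, a limit chosen after the counts were seen, and these held 0 to 58 H3K27ac peaks each. An RNA pol II peak was present in 36 of them, with 937 H3K9me3 peaks, and absent from 29, with 493. Contact was not compared between the 2 kinds of bin, because nearly all contact took in RNA pol II. The 29 bins held 31 H3K9ac and 328 H3K27ac peaks, and the 36 held 150 and 502. The median was 8 H3K27ac peaks per bin in the 29 and 8.5 in the 36. Of the H3K9me3 peaks, 10.5% in the 29 and 52.2% in the 36 were also called before weaning. Chromosome 18 held 5 of the 29 bins and 4 of the 36.

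Contact was gathered in few places. The 10 bins with the most contacted H3K9me3 peaks held 51.0% of them, and 37.5% without the window. The 10 bins with the most H3K9me3 peaks held 22.4% of the list, and 15.2% without the window. RNA pol II peaks were gathered as much as contact was, with 50.8% in their 10 fullest bins, and 37.9% without the window. Among chromosomes, outside the window, chromosome 9 had the highest share in contact, 72 of 210 peaks (34.3%, interval 28.2 to 40.9), and 34 of these 72 came from the bin named above. Chromosomes 19, 23 and 17 followed with 29.5%, 27.3% and 26.7%, and their intervals overlapped that of chromosome 9. No contact was found on chromosome 20 (0 of 48, which allows up to 6.25% at 3 counts) or chromosome 22 (0 of 58, up to 5.17% at 3 counts), the chromosomes without RNA pol II peaks. Chromosome 7 had 1 of 191. Chromosome 18, which held the most H3K9me3 peaks outside the window, 278, had 15 in contact (5.40%).

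Before weaning, the same measures gave other values for both acetylation marks, here side by side and with no test, as each list was 1 library. The lists also differed in length, with 74249 H3K27ac and 14384 H3K9ac peaks before weaning, against 30446 and 2127 after, and the part of this in the values was not tested. Before weaning 2.28% of 2410 H3K9me3 peaks touched H3K27ac, 1.00 times placement, against 5.61% and 6.96 times after weaning. Placement with H3K27ac gave 2.28% before and 0.806% after. H3K9ac was touched by 5.19% before (interval 4.37 to 6.15) and 6.76% after (interval 6.04 to 7.57), and these intervals overlapped. Placement with H3K9ac gave 0.375% before and 0.0634% after. The ratio was thus 13.8 before and 107 after, while the share itself changed little. Without the window the mean number of H3K27ac peaks in the bin of an H3K9me3 peak was 0.793 of placement before weaning and 0.996 after, and for H3K9ac it was 0.972 and 2.42. For RNA pol II contact was present at both times, with 17.2% of H3K9me3 peaks before weaning and 14.0% after. The share of RNA pol II peaks on H3K9me3 of the same time was 21.7% before weaning, in a list of 2056 peaks, against 86.3% after. With the H3K9me3 lists exchanged, 88.6% of the 738 RNA pol II peaks labelled after weaning lay on H3K9me3 before weaning, and 20.4% of the 2056 on H3K9me3 after weaning. The cause of the gap was not tested.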

How the data were processed

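ChIP-seq libraries of rumen epithelial tissue were sequenced at 75 nt per read. The authors trimmed reads with Trim Galore 0.4.1 (per the submitters' processing notes), aligned them to UMD3.1.1 with BWA, retained unique alignments, and called peaks with MACS2 at default settings against the shared input. The deposited values are peak positions (chromosome, start and end), with no score, height or depth, so read depth was not used here. The lowest width was 200 bp when both ends were counted.

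Peaks were in contact when they shared 1 bp. Each peak of 1 list was moved at random on its own chromosome 1000 times with its width kept, up to the highest peak end of the 8 lists (2658 Mb in all), and a two-sided permutation p was taken. For values without the window, no peak was placed there. Wilson intervals take in counting error alone, while peaks close together share their source. Regions were named by rule: the 5 widest H3K9me3 peaks touching all 3 active lists, the 5 widest with no active peak within 100 kb, the most shared bases, the 5 densest bins, and the chromosomes at both ends of contact. The alternatives were merging within 1 kb, wider peaks, chromosomes 1 to 29 and X, leaving out the 29 regions of all 8 libraries, shifts of up to 500 kb, rotation of lists, a reciprocal overlap of 50%, extension by 1 kb, midpoints, untouched peaks and other bins. The placement test was tested on lists simulated by the same random placement. They did not imitate the clustering of the real lists, so this could not show how the test behaves with clustered peaks. Python 3.11.15, numpy 2.4.6 and scipy 1.17.1 were used. The lists, the window and the rules were chosen with earlier results of these data known.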

Additional observations from a re-analysis of the deposited data

Results flagged for a closer look

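The H3K9me3 list after weaning held 7 peaks on the mitochondrial sequence, and none of the other 7 lists held any there. No active list has a peak on this sequence, so these 7 peaks entered no distance, and they counted as peaks without contact.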

How the results depend on the processing

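The 36 values were recomputed under 300 alternatives in all, of which 288 kept the direction and the side of the threshold, among them all alternatives for the contact shares. No paired analysis was possible because each group was 1 library. Under 7 alternatives the direction turned, under 7 the test was no longer passed and under 2 it was newly passed, with 4 alternatives counted in 2 of these ways, all for median distances and H3K27ac per bin. With shifts of up to 500 kb, the median from H3K9ac to H3K9me3 was 349733 bp (357926 bp by placement, permutation p = 0.358), and 379773 bp without the window (permutation p = 0.911). From H3K27ac it was 456295.5 bp and, without the window, 457405 bp, above placement by less than 1 kb (permutation p = 0.793 and 0.905). From H3K9me3 to RNA pol II it was 1120637 bp, above placement at 1101994 bp (permutation p = 0.412), and without the window 1791772 bp, below placement at 1822468 bp (permutation p = 0.242). For all peaks, 14.5 H3K27ac peaks in the bin of an H3K9me3 peak fell below placement with shifts (14.7, permutation p = 0.022) and did not pass the test under rotation (12.2, permutation p = 0.208). Without the window the mean was 8.40 after merging (8.35 by placement, permutation p = 0.805), 6.25 in bins of 500 kb (6.18, permutation p = 0.661), 64.4 in bins of 5 Mb (60.7, permutation p = 0.0020) and 12.3 with shifts (12.6, permutation p = 0.0020). The cause of these changes was not tested. What depth limits is unknown, since the lists carry none.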
